A study of Equus caballus with 28 samples.

Results

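The miR-181 family of the horse was described across uterus and conceptus from small RNA sequencing of 28 libraries in 6 groups. Its members were taken as all known miRNAs in the table of mature miRNAs whose name was eca-miR-181 followed by a letter from a to d, with or without an arm suffix. This rule found 2 of the 690 known miRNAs, eca-miR-181a and eca-miR-181b, and 844 rows were counted when the 154 predicted miRNAs were included. The rule used names only and no measured value.

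MicroRNAs of the miR-181 family are short RNAs that share a seed, the stretch near the 5′ end that pairs with target messages, and they lower the output of those messages. The family is best known from blood cell formation, where miR-181a tunes the sensitivity of the T cell receptor during thymic development, and it is also expressed in many solid tissues. Mature miR-181a and miR-181b are near-identical and are commonly encoded side by side in one precursor transcript, with a second copy of the pair on another chromosome in mammals. In the RefSeq gene table of the thoroughbred assembly TB-T2T, MIR181A lay directly beside MIR181B, and a further entry, MIR181A-2, lay beside PTPRC, the gene of the leukocyte antigen CD45. Reads of mature miR-181a could not be assigned to one copy or the other, and how the authors' counting shared reads that match both members is not given in the sources used here.

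All samples were taken on day 13 after ovulation, at the time when the mare recognizes a pregnancy. Samples came from Warmblood mares in a switch-back design, each mare sampled once pregnant after insemination with semen of the same stallion and once in a cyclic, non-inseminated cycle, with ovulation induced by hCG in both. The groups were pregnant endometrium (biopsies, n = 5), cyclic endometrium (n = 4), pregnant uterine fluid (UF, collected with a tampon, n = 5), cyclic UF (n = 4), embryo tissue freed of its capsule (n = 5) and yolk sac (YS) fluid aspirated from the same embryos (n = 5). Replicate numbers name mares, and the cyclic samples of mare 5 were not analysed here. Whole tissues and fluids hold many cell types, so that fewer cells of a type and less RNA per cell cannot be told apart. Fluids and tissues were also extracted with different kits, which cannot be told apart from the difference between fluid and tissue.

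The libraries held 280065 to 590593 counted miRNA reads in pregnant endometrium, 61836 to 371630 in cyclic endometrium, 79173 to 152860 in pregnant UF and 62087 to 226308 in cyclic UF. The conceptus libraries were shallower, with 28204 to 44768 reads in the embryos and 4352 to 14531 in YS fluid. Levels are given as CPM, the reads in each 1000000 counted miRNA reads of the library, and are thus shares of the miRNA pool and not amounts. The libraries that stood apart were 4 in number: cyclic endometrium of mare 1 and cyclic UF of mare 3 were the shallowest of their groups, YS fluid of mare 4 held only 4352 reads, and 36.3% of the reads of the embryo of mare 1 fell on predicted miRNAs against 5.02% to 8.67% in the other embryos. The labels of the conceptus samples were checked against an early-embryo list (miR-302, miR-367, miR-371 and miR-372, 8 rows), whose summed level was 12020 to 65295 CPM in the embryos, 34891 to 264130 CPM in YS fluid and 0 to 32.2 CPM in the uterine libraries.

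miR-181a was an abundant uterine miRNA and a rare one in the conceptus. In pregnant endometrium it was measured at 6421, 7779, 4297, 8623 and 6726 CPM in mares 1 to 5, and in cyclic endometrium at 11708, 6819, 5670 and 10834 CPM in mares 1 to 4. In UF it was measured at 8068, 13633, 17408, 10665 and 14235 CPM in the pregnant mares 1 to 5 and at 15275, 19124, 6894 and 13899 CPM in the cyclic mares 1 to 4. All 18 uterine libraries thus lay between 4297 and 19124 CPM, and the ranges of the 4 uterine groups overlapped. Among the known miRNAs, miR-181a ranked between the 14th and the 29th most abundant in every one of these libraries.

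In the conceptus, miR-181a came to 177, 44.7, 304, 242 and 459 CPM in the embryos of mares 1 to 5, from 5, 2, 11, 7 and 19 reads. In YS fluid it came to 1450, 69.2, 230, 3447 and 1101 CPM, from 11, 1, 3, 15 and 16 reads. Every conceptus library lay below every uterine library, and the YS libraries were spread over a far wider range than the embryos. At the mean level of pregnant endometrium, the embryo libraries would have held 191 to 303 reads of miR-181a and the YS libraries 29.5 to 98.4 reads, more than was counted in every one of them. The highest YS value, that of mare 4, rested on 15 reads in the shallowest library, with an exact 95% binomial interval of 1930 to 5678 CPM. Such intervals, and the floor of 3 reads used below, cover counting error only.

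miR-181b was the minor member in the uterus. It was measured at 1419, 1213, 1018, 1810 and 1122 CPM in pregnant endometrium of mares 1 to 5 and at 1682, 1236, 955 and 1591 CPM in cyclic endometrium of mares 1 to 4. In pregnant UF it was measured at 1165, 1858, 1943, 1434 and 1730 CPM, and in cyclic UF at 1985, 2360, 1063 and 1847 CPM. All 18 uterine libraries lay between 955 and 2360 CPM, a narrower band than that of miR-181a, and here too the 4 groups overlapped.

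In the conceptus, miR-181b was near the limit of detection. The 5 embryos held 1, 2, 4, 0 and 4 reads, or 35.5, 44.7, 110, 0 and 96.6 CPM, and 3 of the 5 were at or under the floor of 3 reads. The YS libraries held 1, 2, 1, 0 and 2 reads, or 132, 138, 76.5, 0 and 138 CPM, and all 5 were at or under that floor. The exact binomial interval of the 0 reads reached up to 128 CPM in the embryo of mare 4 and up to 847 CPM in YS fluid of mare 4. At the mean of pregnant endometrium the embryo libraries would have held 37.1 to 58.9 reads and the YS libraries 5.73 to 19.1 reads.

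**Figure D1:**
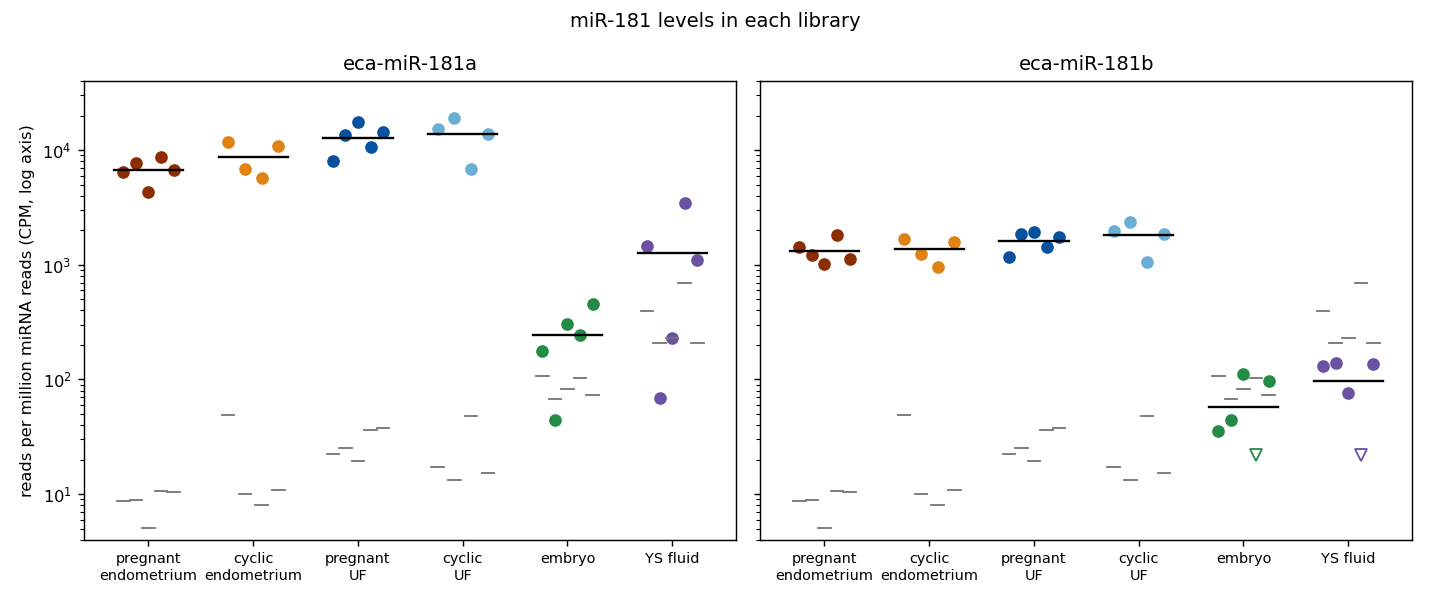
Levels of eca-miR-181a (left) and eca-miR-181b (right) in each of the 28 libraries, in CPM on a log axis, by group, with mares in order from left to right. Points are libraries, black lines group means, short grey lines the level of 3 reads in that library, and open triangles libraries with 0 reads, drawn near the bottom since 0 has no place on a log axis. The uterine libraries lie at 4297 to 19124 CPM for miR-181a and at 955 to 2360 CPM for miR-181b, above all conceptus libraries.

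The plot of the levels by library shows the order of the group means. For miR-181a this order was cyclic UF with 13798 ± 5107 CPM (SD, n = 4), pregnant UF with 12802 ± 3569 CPM (n = 5), cyclic endometrium with 8758 ± 2961 CPM (n = 4), pregnant endometrium with 6769 ± 1635 CPM (n = 5), YS fluid with 1259 ± 1353 CPM (n = 5) and the embryo with 245 ± 153 CPM (n = 5). For miR-181b the order was the same, with 1814 ± 545, 1626 ± 322, 1366 ± 335, 1316 ± 313, 96.9 ± 60.0 and 57.4 ± 45.5 CPM. Of the neighbours in this order, no difference beyond their spread was found between the cyclic and pregnant samples of one compartment or between YS fluid and the embryo in the tests given below, and pregnant UF was not tested against cyclic endometrium. The step from pregnant endometrium to YS fluid was the one that passed the test.

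Whether the conceptus carries the family at the level of the surrounding uterus was addressed by comparing the embryo with pregnant endometrium and pregnant UF. Both members fell in the embryo. Over summed reads, miR-181a was 26.0-fold lower in the embryo than in pregnant endometrium (exact 95% interval 19.3 to 35.8, 44 against 11728 reads) and miR-181b was 20.6-fold lower (11.5 to 41.4, 11 against 2329 reads). Against pregnant UF, miR-181a was 52.9-fold lower (39.4 to 72.9) and miR-181b 26.7-fold lower (14.9 to 53.7). These intervals of summed reads cover counting error only and leave out the spread between animals. No embryo library reached the lowest library of either uterine group for either member. How many of all miRNAs were separated in this way was not counted, for the embryo or for YS fluid.

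In edgeR's quasi-likelihood test with TMM scaling, a miRNA was called at a false discovery rate (FDR, Benjamini-Hochberg over all miRNAs tested) of at most 0.05 and a change of at least 2-fold. Against pregnant endometrium, the embryo had a log2 fold change of −6.12 for miR-181a (SE 0.51, FDR 1.13e-06) and −5.78 for miR-181b (SE 0.61, FDR 6.37e-06). Both members were called lower, in a comparison in which 71.3% of the 359 tested miRNAs were called and 42.6% were called lower. Against pregnant UF the values were −7.28 (SE 0.54, FDR 3.07e-07) and −6.26 (SE 0.69, FDR 8.88e-06), where 68.4% of 310 miRNAs were called and 38.7% called lower. Being called lower is therefore common among the miRNAs of this comparison, and the members differ from most in size: miR-181a had the 28th lowest log2 fold change of 359 against pregnant endometrium and the 8th lowest of 310 against pregnant UF, and miR-181b the 34th and the 31st lowest.

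The size of these changes depended on the scaling, since TMM set the median change of all tested miRNAs between embryo and pregnant endometrium at −1.02 on the log2 scale and library totals set it at 0.30. With library totals, miR-181a fell by 4.78 and miR-181b by 4.46 on the log2 scale. Relative to the median of all tested miRNAs, miR-181a stood at −5.10 with TMM and at −5.08 with library totals, and miR-181b at −4.75 and −4.76. The call and the direction were the same under both. The split of all calls was not, with 103 higher and 153 lower under TMM against 140 and 94 under library totals. Against pregnant UF, miR-181a stood at −7.05 and −6.87 relative to the median under the 2 scalings and miR-181b at −6.03 and −5.93, and the split of calls went from 92 higher and 120 lower to 146 and 85. Without the embryo of mare 1, with its many predicted reads, the TMM values were −6.22 and −5.83 against pregnant endometrium and −6.80 and −5.78 against pregnant UF.

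Whether the fluid inside the YS resembles the uterine side was addressed in the same way. Both members also fell in YS fluid. Over summed reads, miR-181a was 7.48-fold lower than in pregnant endometrium (5.60 to 10.2, 46 against 11728 reads) and miR-181b 11.4-fold lower (5.22 to 31.1, 6 against 2329 reads). Against pregnant UF, miR-181a was 15.2-fold lower (11.4 to 20.8) and miR-181b 14.7-fold lower (6.74 to 40.2). Here too the intervals leave out the spread between animals. No YS library reached the lowest uterine library, although the YS fluid of mare 4, at 3447 CPM of miR-181a, came near the 4297 CPM of pregnant endometrium of mare 3.

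The log2 fold change of YS fluid against pregnant endometrium in edgeR was −4.57 for miR-181a (SE 0.72, FDR 6.06e-05) and −5.59 for miR-181b (SE 0.46, FDR 1.42e-07). Against pregnant UF it was −5.44 (SE 0.65, FDR 3.28e-06) and −5.54 (SE 0.53, FDR 3.01e-07). Both members were called lower in both, where 53.1% of 341 and 59.6% of 277 miRNAs were called, and 35.2% and 36.1% were called lower. With library totals the changes from pregnant endometrium were −2.61 (FDR 0.00237) and −3.58 (FDR 2.20e-05) on the log2 scale, while the median of all miRNAs moved from −0.84 to 1.16 and the split of calls from 61 higher and 120 lower to 119 and 59. Relative to that median, miR-181a stood at −3.73 with TMM and at −3.78 with library totals, and miR-181b at −4.76 and −4.74. Against pregnant UF the split of calls went from 65 higher and 100 lower to 114 and 52, and the members stood at −4.90 and −5.00 relative to the median with TMM. Without the YS fluid of mare 4, the edgeR value of miR-181a was −5.46 (FDR 1.79e-06) against pregnant endometrium, and the ratio of summed reads was 10.2-fold.

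Between the embryo and YS fluid no difference was called. The log2 fold change of the embryo over YS fluid was −1.57 for miR-181a (95% interval −3.44 to 0.31, FDR 0.164) and −0.29 for miR-181b (−1.84 to 1.27, FDR 0.765) in edgeR, where 35.1% of 259 miRNAs were called (57 higher and 34 lower with TMM, 40 and 55 with library totals). The intervals leave room for a change of several fold in either member. The difference of miR-181a depended on the YS fluid of mare 4, without which it was −0.93 (FDR 0.378). With library totals and all libraries it was −2.27 (FDR 0.0647).

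**Figure D2:**
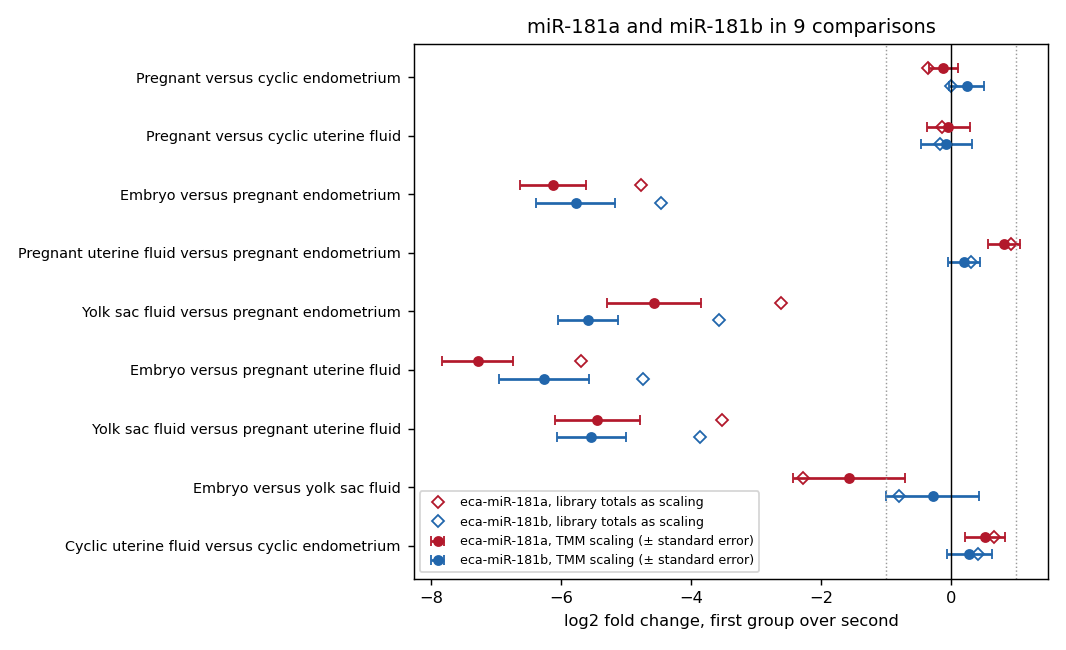
Log2 fold change of eca-miR-181a (red) and eca-miR-181b (blue) in the 9 comparisons, the first group named over the second, with TMM scaling (filled points, bars ± 1 standard error) and with library totals as the scaling (open diamonds). Dotted lines mark a 2-fold change in either direction. In the 4 comparisons of the conceptus with the pregnant uterus both members lie between −7.28 and −2.61 under either scaling, and in the other 5 the values lie between −1.57 and 0.81 with TMM and between −2.27 and 0.92 with library totals.

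Whether pregnancy changes the family in the uterus was addressed in the 4 mares with both cycles, with the mare as a block. No change was called in endometrium. miR-181a was lower in the pregnant than in the cyclic endometrium in 3 of 4 mares, with log2 ratios of CPM from −0.87 to 0.19, and its edgeR log2 fold change was −0.12 (95% interval −0.54 to 0.31, FDR 0.915). miR-181b was higher in 2 of 4 mares and lower in 2, with an edgeR log2 fold change of 0.24 (−0.29 to 0.77, FDR 0.80). In this comparison 3.37% of 386 miRNAs were called. With 28 libraries in 1 fit the standard errors were larger, 0.45 against 0.22 for miR-181a and 0.42 against 0.27 for miR-181b, so that these intervals depend on the fit. Without mare 1, whose cyclic endometrium library was shallow, the values were −0.06 and 0.20.

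In UF no change was called either, and 4.92% of 305 miRNAs were, a count of 15 that went to 2, 3, 7 and 26 without mares 3, 4, 2 and 1. The level of both members was lower in the pregnant than in the cyclic sample in mares 1, 2 and 4 and higher in mare 3. miR-181a of mare 3 went from 6894 CPM in the shallow cyclic library to 17408 CPM in the pregnant one, whereas that of mare 1 went from 15275 to 8068 CPM. The edgeR log2 fold change was −0.04 for miR-181a (95% interval −0.69 to 0.60, FDR 0.996) and −0.07 for miR-181b (−0.84 to 0.69, FDR 0.996). Without mare 3 the values were −0.47 (FDR 0.556) and −0.36 (FDR 0.653), and without mare 1 they were 0.21 and 0.11, so that the direction rested on single mares. The log2 ratios of CPM in the 4 mares ran from −0.92 to 1.34 for miR-181a and from −0.77 to 0.87 for miR-181b. With 28 libraries in 1 fit the standard error of miR-181a was 0.53 against 0.33, and that of miR-181b stayed at 0.39. The interval of miR-181a in UF thus depends on the fit as well. The pregnancy effect on UF less that on endometrium was −0.04 for miR-181a (FDR 1) and −0.43 for miR-181b (FDR 0.987) in edgeR's interaction test, in which 1.69% of 415 miRNAs were called, a count of 7 that went to 0 without mare 3, to 15 without mare 2 and to 20 without mare 1.

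**Figure D3:**
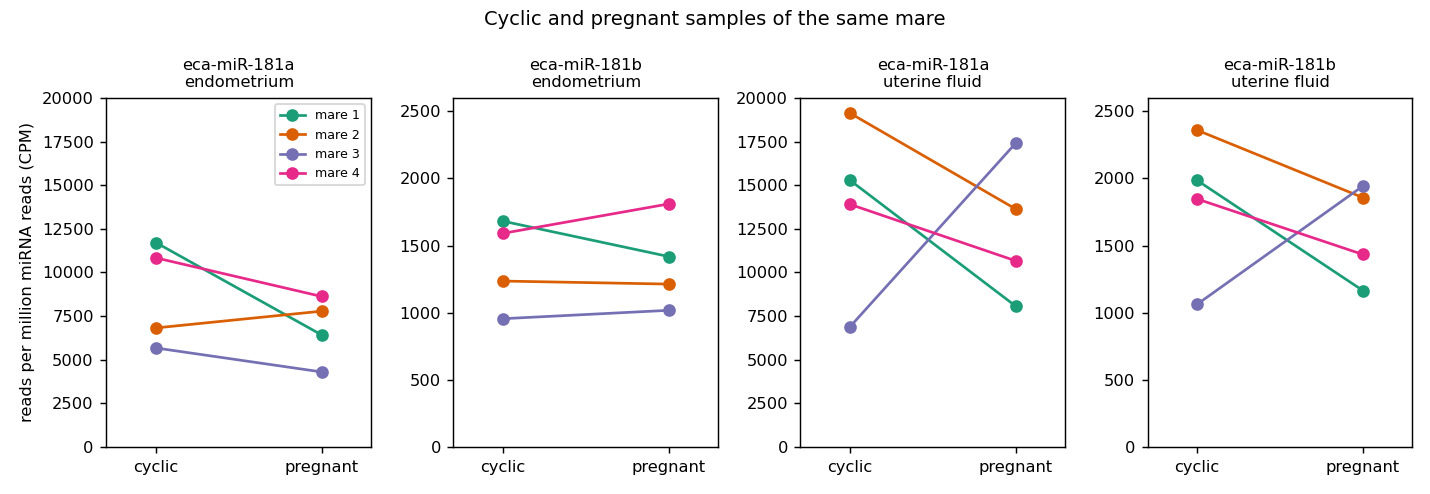
CPM of eca-miR-181a and eca-miR-181b in the cyclic and the pregnant sample of each of the 4 mares with both cycles, in endometrium (left pair of panels) and UF (right pair). Each line is a mare. In UF, mare 3 alone lies higher in the pregnant sample, at 17408 against 6894 CPM of miR-181a, and the other 3 mares lie lower.

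Whether the fluid in the uterine lumen mirrors the tissue was addressed within each cycle. miR-181a was higher in UF than in the endometrium of the same mare in 5 of 5 pregnant and in 4 of 4 cyclic mares, with log2 ratios of CPM from 0.31 to 2.02 and from 0.28 to 1.49. Its edgeR log2 fold change of pregnant UF over pregnant endometrium was 0.81 (SE 0.24, FDR 0.0151), which is 1.75-fold and under the 2-fold limit, so that it was not called. In the same comparison 33.7% of 359 miRNAs were called and 13.6% were called higher in UF. The FDR of miR-181a was above 0.05 in this comparison when the endometrium of mare 3 (0.0802) or the UF of mare 5 (0.0716) was left out. In the cyclic mares the log2 fold change of miR-181a was 0.52 (95% interval −0.14 to 1.19, FDR 0.229), where 30.8% of 328 miRNAs were called, and it was 1.07 (FDR 0.0120) without the shallow cyclic UF library of mare 3 and 1.08 (FDR 0.0477) without the cyclic endometrium of mare 4. Without the shallow cyclic endometrium library of mare 1 it was 0.81 (FDR 0.156).

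For miR-181b no difference between UF and endometrium passed the test. It was higher in UF than in the endometrium of the same mare in 3 of 5 pregnant mares, with log2 ratios from −0.34 to 0.93, and in 4 of 4 cyclic mares, with log2 ratios from 0.15 to 0.93. The edgeR log2 fold change was 0.19 (95% interval −0.33 to 0.72, FDR 0.564) in pregnancy and 0.28 (−0.46 to 1.02, FDR 0.592) in the cyclic state, where all 4 mares pointed the same way.

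The ratio of the members to each other was compared next, since both counts come from one library and their ratio needs no scaling between libraries. It is a ratio of reads, which need not be that of molecules, since library preparation does not capture all miRNAs equally. In pregnant endometrium 4.53, 6.41, 4.22, 4.76 and 5.997 reads of miR-181a were counted for each read of miR-181b in mares 1 to 5, a mean ratio of 5.18 ± 0.96 (SD). In pregnant UF the ratio was 6.92, 7.34, 8.96, 7.44 and 8.23, a mean of 7.78 ± 0.81. These groups did not overlap, and the ratio was higher in UF than in the endometrium of the same mare in all 5. The fluid ratio was 1.51-fold the tissue ratio, a difference of 0.60 on the log2 scale (exact two-sided permutation test over libraries, p = 0.00794, the smallest that 5 against 5 libraries can give). Adjusted over the 9 comparisons of the ratio, the p-value was 0.0714 and did not pass 0.05. With the libraries paired by mare, an exact sign-flip test gave p = 0.0625, the smallest that 5 pairs can give.

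In the cyclic samples the ratio was 6.96, 5.52, 5.94 and 6.81 in endometrium of mares 1 to 4 and 7.69, 8.10, 6.48 and 7.53 in UF. The fluid ratio again lay above that of the same mare's tissue in all 4, but the groups overlapped. The difference was 0.24 on the log2 scale (exact permutation test, p = 0.0857, adjusted p = 0.381). In endometrium the mean log2 ratio was 0.35 lower in the pregnant than in the cyclic samples and the ratio was lower in 3 of 4 mares (exact sign-flip test, p = 0.25, adjusted p = 0.563), where 4 pairs cannot give less than 0.125. In UF the ratio differed by 0.04 between the cycles (exact sign-flip test, p = 1).

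In the conceptus the ratio could be read only from sums. The embryos held 44 reads of miR-181a and 11 of miR-181b, a ratio of 4.00, and the YS libraries 46 and 6 reads, a ratio of 7.67. With all libraries, no comparison of the ratio with a conceptus group passed the test, with adjusted p-values of 0.381 to 0.973 in the exact permutation test. Without the embryo of mare 4, which had 0 reads of miR-181b, the mean log2 ratio of the embryo less that of pregnant UF was −1.61 (exact permutation test, adjusted p = 0.0357). Each conceptus library held 0 to 4 reads of miR-181b, so that the ratio of single libraries is imprecise.

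**Figure D4:**
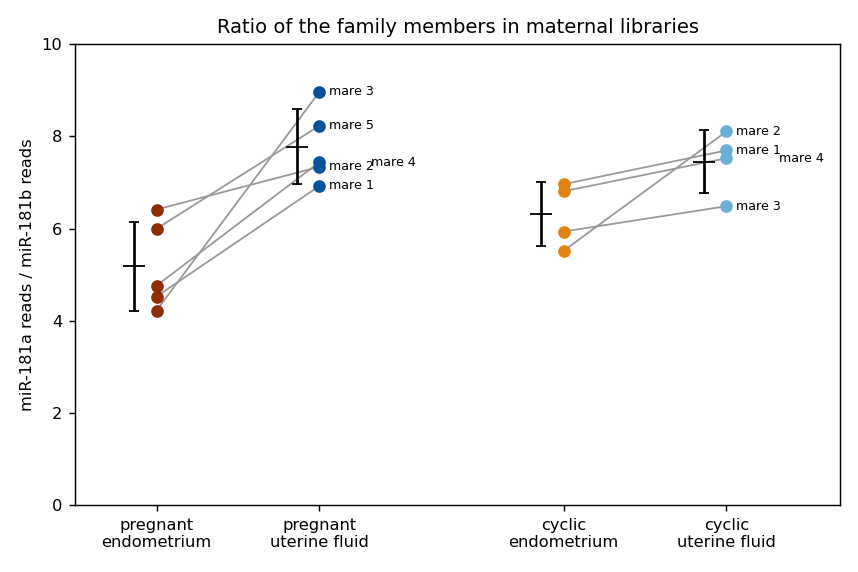
Reads of eca-miR-181a for each read of eca-miR-181b in endometrium and UF of the same mare, in the pregnant (left) and the cyclic state (right). Points are libraries, grey lines join the samples of a mare, and black bars show the mean ± SD. Every line ends higher in UF, with ratios of 4.22 to 6.41 in endometrium and 6.92 to 8.96 in UF of the pregnant mares and of 5.52 to 6.96 and 6.48 to 8.10 in the cyclic mares.

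The miRNAs whose pattern over the 28 libraries was most like that of miR-181a were sought among the 81 known miRNAs with a read in every library. Likeness was measured as the root mean square difference of log2 TMM-normalized CPM after each miRNA was centred on its own mean, where a smaller value is a closer pattern. Of the 80 candidates, let-7c (0.70), miR-204b (0.70), let-7d (0.71), let-7g (0.71) and let-7a (0.73) came closest to miR-181a. miR-181b had 0 reads in 2 libraries and was no candidate, and its own difference from miR-181a was 1.24 over the same libraries, in which the conceptus counts of miR-181b were at most 4 reads. All points share the same libraries, and libraries of uterus and conceptus enter together.

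The let-7 miRNAs, known for rising as cells differentiate, and miR-204b shared the low level in the conceptus. This follows from their choice by likeness to miR-181a over libraries that include the conceptus, and is no separate result. In the embryo they came to 2.40% to 2.98% of their mean level in pregnant endometrium, against 3.63% for miR-181a and 4.36% for miR-181b. In YS fluid they came to 9.14% to 14.4%, against 18.6% for miR-181a and 7.36% for miR-181b. These YS means leaned on the shallow library of mare 4, without which the 5 miRNAs came to 5.20% to 8.73%, miR-181a to 10.5% and miR-181b to 9.20%. In pregnant UF, miR-181a came to 189% and miR-181b to 124% of the level in pregnant endometrium, and the 5 miRNAs to 80.0% to 119%. In cyclic UF, miR-181a came to 204%, miR-181b to 138% and the 5 miRNAs to 82.5% to 143%, the highest of which was let-7c. These shares were not tested against each other.

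Lists of miRNAs that mark other cell types were set beside the family. In the embryo, relative to pregnant endometrium, the haematopoietic and leukocyte list (miR-142, miR-146, miR-150, miR-155 and miR-223, 8 rows) came to 4.28% of its summed level, the erythroid list to 3.15%, the stromal and smooth muscle list to 2.38% and the endothelial list (miR-126) to 7.003%. The family itself came to 3.75%. Of the rows that could be tested, 7 of 7 haematopoietic, 4 of 4 erythroid, 7 of 7 stromal and 2 of 2 endothelial ones were called lower in the embryo, beside 42.6% of all miRNAs, with median log2 fold changes of −5.83, −5.90, −6.96 and −5.16 beside −1.02 over all miRNAs tested. Of these rows, miR-144, miR-199a-5p and miR-214 held 0 reads over the embryos and entered the test through their endometrium reads alone. Such rows can only come out lower, so that these counts and medians are no separate result. The summed level of the epithelial list came to 195%, but its rows were divided. Its members miR-200a, miR-200b and miR-429 came to 184%, 439% and 550%, whereas miR-141, miR-200c and miR-205 came to 51.3%, 42.2% and 40.5%. With TMM scaling, 1 of the 6 rows was called higher and 3 lower, with a median log2 fold change of −1.34. The percentages are of CPM, without TMM scaling. The leukocyte miRNAs miR-142-3p and miR-150 were at 0 reads in all embryos and in all YS libraries, and 3 of 8 rows in the embryos and 6 of 8 in YS fluid were at 0 throughout. Their means in pregnant endometrium were 24.9 and 83.4 CPM, under the level of 3 reads in every YS library (206 to 689 CPM). Their 0 reads in YS fluid therefore say little. In the embryos the level of 3 reads was 67.0 to 106 CPM, above the mean of miR-142-3p and around that of miR-150. The 0 reads of these miRNAs in single embryos are therefore weak evidence too. miR-155, the most abundant row in pregnant endometrium, held 19 reads over the embryos and 25 over the YS libraries.

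In UF the summed levels of the family and the lists were set beside each other without a test. The family came to 178% of its pregnant endometrium level in pregnant UF and to 193% in cyclic UF, whereas the haematopoietic list came to 68.5% and 55.7%, the erythroid list to 17.4% and 24.1%, the stromal list to 13.2% and 6.34% and the endothelial list to 5.07% and 2.30%. Within the haematopoietic list the rows were divided, with miR-150 at 203% and 192%, miR-146a at 102% and 166% and miR-155, the most abundant row, at 81.8% and 43.8%. Of its rows, 2 of 8 were called lower in pregnant UF than in pregnant endometrium, beside 72 of 359 among all miRNAs tested. In cyclic UF against cyclic endometrium 1 of 7 was called lower, beside 62 of 328. None of its rows was called higher in either, beside 49 and 39 of all miRNAs tested. The epithelial list (miR-141, miR-200, miR-205 and miR-429) came to 122% and 137%. Its rows ranged from miR-141, at 71.2% and 89.3%, to miR-205, at 2007% and 3049%. The summed haematopoietic level was 3749 to 5601 CPM in pregnant endometrium, 2331 to 3726 CPM in pregnant UF, 96.6 to 312 CPM in the embryo and 277 to 1149 CPM in YS fluid. The part of these cell types in the levels of miR-181a and miR-181b was not tested.

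**Figure D5:**
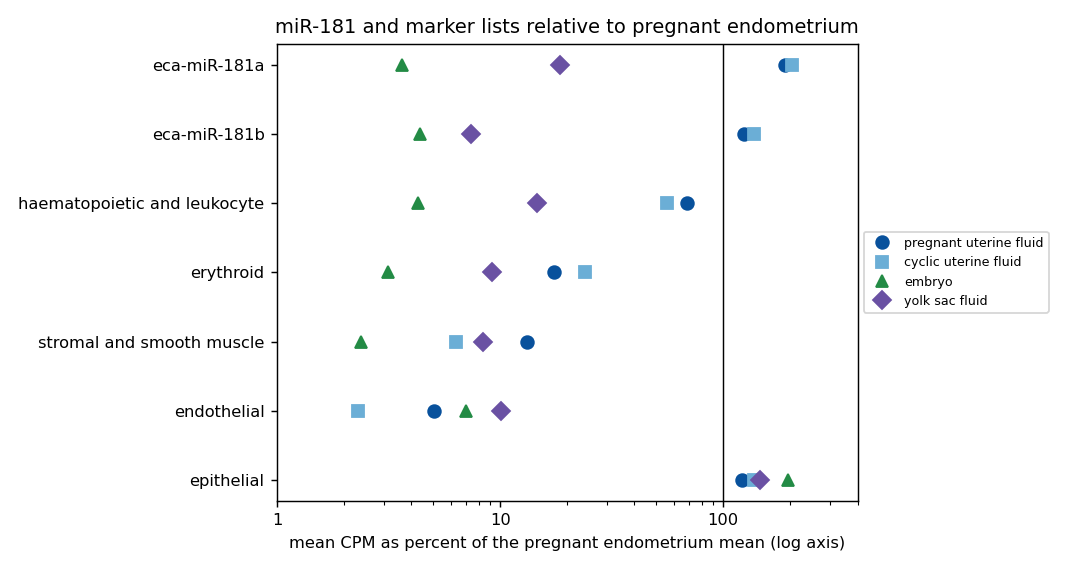
Mean CPM of eca-miR-181a, eca-miR-181b and 5 marker lists (summed over the list) in UF, embryo and YS fluid, as a percent of the mean of pregnant endometrium on a log axis, with the vertical line at 100%. In the embryo both members lie at 3.63% and 4.36%, and the haematopoietic, erythroid, stromal and endothelial lists lie between 2.38% and 7.003%. In UF the means of both members lie above 100% and the sums of these 4 lists below it, although single haematopoietic rows such as miR-150 lie above it and miR-181b was higher in UF in only 3 of 5 pregnant mares.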

How the data were processed

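Small RNA libraries were made with the TailorMix kit and sequenced on a MiSeq, and the authors trimmed reads with cutadapt 1.11 and counted them with miRPro against miRBase and the EquCab2.0 genome. The deposited table of mature miRNAs holds raw counts in each of 28 libraries. Its companion table of precursors repeats the counts of predicted miRNAs in 154 of 154 rows and was not used. Members and lists were chosen with earlier results of these data known.

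Counts of known and predicted miRNAs were tested together in edgeR 4.0.16 (R 4.3.3; quasi-likelihood, TMM), after requiring 1 CPM in as many libraries as the smaller group held, with Benjamini-Hochberg adjustment and calls at an FDR of at most 0.05 and 2-fold. Pregnant and cyclic samples were blocked by mare, since the methods state that the same mares were used. Same-mare libraries correlated at 0.146 in endometrium and 0.268 in UF on average, measured on deviations from the group means. The ratio of miR-181a to miR-181b (0.5 reads added to each) was tested by exact permutation, and by exact sign flips over mares for pregnant against cyclic. Intervals of single levels are exact (Clopper-Pearson, 95%, scipy 1.17.1). Named miRNAs were the members by name and the 5 most like them with a read in every library. Tests were checked on simulated data. RLE scaling, DESeq2 1.42.0, a likelihood ratio test, other filters, known miRNAs only, 1 fit over all libraries, the other pairing, summed family reads and left-out libraries were tried, and library totals as scaling was added after seeing the data.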

Additional observations from a re-analysis of the deposited data

How the results depend on the processing

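In the 4 comparisons of embryo or YS fluid with pregnant endometrium or pregnant UF, both members were called lower under every alternative run, with log2 fold changes from −7.41 to −2.61 and FDR of at most 0.00237. The other results moved around 0 or the 2-fold limit, partly with the median of all miRNAs. Other causes were not tested. For miR-181a, the pregnancy effect in endometrium was 0.0901 with 28 libraries in 1 fit (median 0.42), and its difference between UF and endometrium was 0.20 with RLE scaling, 0.20 with DESeq2, 0.0239 without the low-count filter, 0.0456 with filterByExpr, 0.12 with known miRNAs only, 0.0891 with no replicate block and 0.21 with library totals. Less the median, this difference was 0.23 with TMM, 0.22 with RLE and 0.24 with library totals. The family's summed reads, mostly miR-181a, gave −0.30 (median −0.17) for the pregnancy effect in endometrium, against −0.12 and 0.24 (median 0.08) for the members apart. miR-181a was called in pregnant UF over pregnant endometrium with known miRNAs only (1.03, FDR 0.0043), whereas its FDR there was 0.313 with 28 libraries in 1 fit and 0.0508 without the filter, and it was called between embryo and YS fluid with 28 libraries in 1 fit (−1.92, FDR 0.0137). With no added reads, the ratio of the members passed an adjusted p of 0.0357 in the exact permutation test for pregnant UF against pregnant endometrium (0.60) and for embryo against pregnant UF (−1.45), the latter with the embryo of mare 4 also dropped for its 0 reads of miR-181b. With filterByExpr, neither member was tested between embryo and YS fluid.

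With a library or mare left out, the log2 fold change of pregnant over cyclic UF ranged from −0.47 to 0.21 for miR-181a and from −0.36 to 0.11 for miR-181b, that of cyclic UF over cyclic endometrium from 0.47 to 1.08 for miR-181a, and the difference of the pregnancy effect from −0.27 to 0.39 and from −0.47 to 0.026. The log2 ratio of the members ranged from −0.11 to 0.10 for pregnant against cyclic UF, from −0.82 to 0.61 for YS fluid against pregnant endometrium, from −1.61 to −0.64 for embryo against pregnant UF (adjusted exact p of 0.0357 without the embryo of mare 4), from −1.41 to 0.0101 for YS fluid against pregnant UF and from −1.11 to 0.31 for embryo against YS fluid.

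The mare as a block changed no call of either member: with the replicate block miR-181a in pregnant UF over pregnant endometrium was 0.78 (FDR 0.0412), and with no replicate block its pregnancy effect was −0.15 in endometrium and −0.03 in UF. The number of miRNAs called fell without the block from 13 to 0 in pregnant against cyclic endometrium (58 at an unadjusted p under 0.05), from 15 to 0 in UF (35) and from 7 to 0 in the difference (26), and with the block from 91 to 54 in embryo against YS fluid, where leaving out the YS fluid of mare 1, 3 or 5 gave 50, 49 and 53. With DESeq2, which kept the block, 12, 10 and 8 were called in the first 3. With filterByExpr 3 of 184 were called in pregnant against cyclic endometrium (13 of 386 in the main test) and 0 of 152 in UF (15 of 305). Embryo against pregnant endometrium gave 140 of 179 (256 of 359), against pregnant UF 101 of 130 (212 of 310) and against YS fluid 40 of 87 (91 of 259). Pregnant UF against pregnant endometrium gave 75 of 171 (121 of 359), and YS fluid against pregnant UF 90 of 124 (165 of 277). With known miRNAs only the pregnancy comparisons gave 2, 3 and 0, and with 28 libraries in 1 fit 6 and 5. Depth limits miR-181b in the conceptus, where no library held more than 4 reads.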
